A study of Mus musculus with 5 samples.

Results

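Aminoacyl-tRNA synthetases and the scaffold proteins of their complex were followed in mouse natural killer (NK) cells with and without the transcription factor gene Myc. The genes were found by symbol in the deposited gene table, which held all 39 of those sought among its 13004 genes: 20 for cytosolic enzymes, 16 for mitochondrial enzymes and 3 for scaffolds. The MycKO group had 2 libraries (replicates 5 and 6) from mice with the genotype Mycdelta/delta/Ncr1Cre, in which both Myc alleles are deleted where Cre recombinase is made under Ncr1, the gene of the NK receptor NKp46. The control group had 3 libraries (replicates 1, 2 and 3) from Mycf/f mice, whose label names no Cre, so the loss of Myc and the presence of Cre cannot be told apart. All mice were C57BL/6 and 8 weeks old, and the cells were live CD3-, NK1.1+ and DX5+ cells sorted from spleen. Nothing in the labels ties a library to an animal of its own; p-values here speak of library-to-library spread, which may be technical.

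A synthetase joins 1 kind of amino acid to the tRNAs that carry it, and the charged tRNA then enters the ribosome. Mammals keep separate nuclear genes for most cytosolic and mitochondrial synthetases, the mitochondrial ones with symbols ending in 2, while Gars and Kars supply both compartments and Eprs joins a glutamyl and a prolyl enzyme in 1 protein. In the cytosol Dars, Eprs, Iars, Kars, Lars, Mars, Qars and Rars are held in the multisynthetase complex by the scaffolds AIMP1 (Aimp1), AIMP2 (Aimp2) and AIMP3 (Eef1e1). MYC is known to raise genes for protein synthesis in growing cells, and the integrated stress response, through the transcription factor ATF4, is known to raise many cytosolic synthetases when amino acids run short.

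Values are RPKM, reads scaled to transcript length and sequencing depth, so levels can be compared between genes. MycKO 5 and 6 held 5451728 and 13337084 reads in listed genes, and controls held 14290690 to 17610826, so MycKO 5 carried the most counting error. Myc itself, read over the whole gene, was at 12.5 and 8.70 RPKM in MycKO 5 and 6 and at 13.0, 23.0 and 21.2 RPKM in controls 1, 2 and 3. Both MycKO libraries lay below all controls, but the difference of -0.77 on the log2(RPKM + 1) scale missed the threshold (limma adjusted p = 0.297), and reads of exons outside the deleted part count towards it. Ncr1 was at 633 and 744 RPKM in MycKO and 1619, 931 and 1243 RPKM in controls (-0.84, limma adjusted p = 0.143). NK markers (10 of 10 listed, Gzma the most abundant) summed to 9637 and 11337 RPKM in MycKO, against 12240 to 14153 RPKM in controls, with 3 of the 10 higher in MycKO and 0 called. Marker sums of other cells were higher in both MycKO libraries: 12 of 12 myeloid markers (Lyz2 the most abundant) summed to 2129 and 1504 RPKM in MycKO 5 and 6, against 428 to 640 RPKM in controls. All 12 were higher in MycKO, and 9 were called, where the share called as higher over all genes tested was 1.24%. The 7 of 8 T cell markers in the table (Cd3g) summed to 119.9 and 176 RPKM, against 14.6 to 33.0 RPKM, with 3 called. The 6 B cell markers (Jchain) summed to 334 and 670 RPKM, against 82.9 to 135 RPKM, with 1 called. The 4 of 8 red cell markers in the table (Car1) summed to 203 and 92.9 RPKM, against 3.37 to 4.72 RPKM, with 3 called. Synthetases are made by every one of these cells, and the part of such cells in the values below was not tested. In bulk RNA a change in the mix of cells and a change in RNA per cell cannot be told apart.

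No synthetase or scaffold gene passed the test between MycKO and control NK cells, and in 27 of the 39 the values of the groups overlapped. The test was limma on log2(RPKM + 1) over 11190 genes, with Benjamini-Hochberg adjustment and a threshold of 0.05, and all 39 genes had enough signal to be tested. It called 0 of the 39, against 1.34% of all genes tested (1.24% as higher and 0.0983% as lower in MycKO). At an unadjusted p under 0.05 there were 3, Aimp2 and Eef1e1 as higher and Yars as lower, where the share over all genes was 13.2%. Limma-voom on reads recovered from the table also called 0, with 2 at an unadjusted p under 0.05, and the authors' deposited table called 0, with 1. In 12 of the 39 the groups did not overlap, 4 with both MycKO libraries above and 8 with both below all controls. Over all genes tested these shares were 18.8% above and 10.4% below, 29.1% together.

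The difference between the classes was not tested, and their medians are given as a description. The median log2 difference, MycKO minus control, was -0.06 for cytosolic enzymes (7 higher, 13 lower), -0.0048 for mitochondrial enzymes (8 higher, 8 lower) and 0.57 for the scaffolds (2 higher, 1 lower), beside 0.05 for all genes tested. The 95% intervals show how large a difference the data allow on the log2(RPKM + 1) scale, which understates changes of low genes. For 19 of the 20 cytosolic enzymes the whole interval lay between -1 and 1 on the log2 scale, the exception being Farsb, which reached 1.22. This was so for 8 of 16 mitochondrial enzymes, 1 of 3 scaffolds and 65.2% of all genes tested. The median SE was 0.16 for cytosolic enzymes, 0.31 for mitochondrial enzymes and 0.19 for scaffolds.

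**Figure D1:**
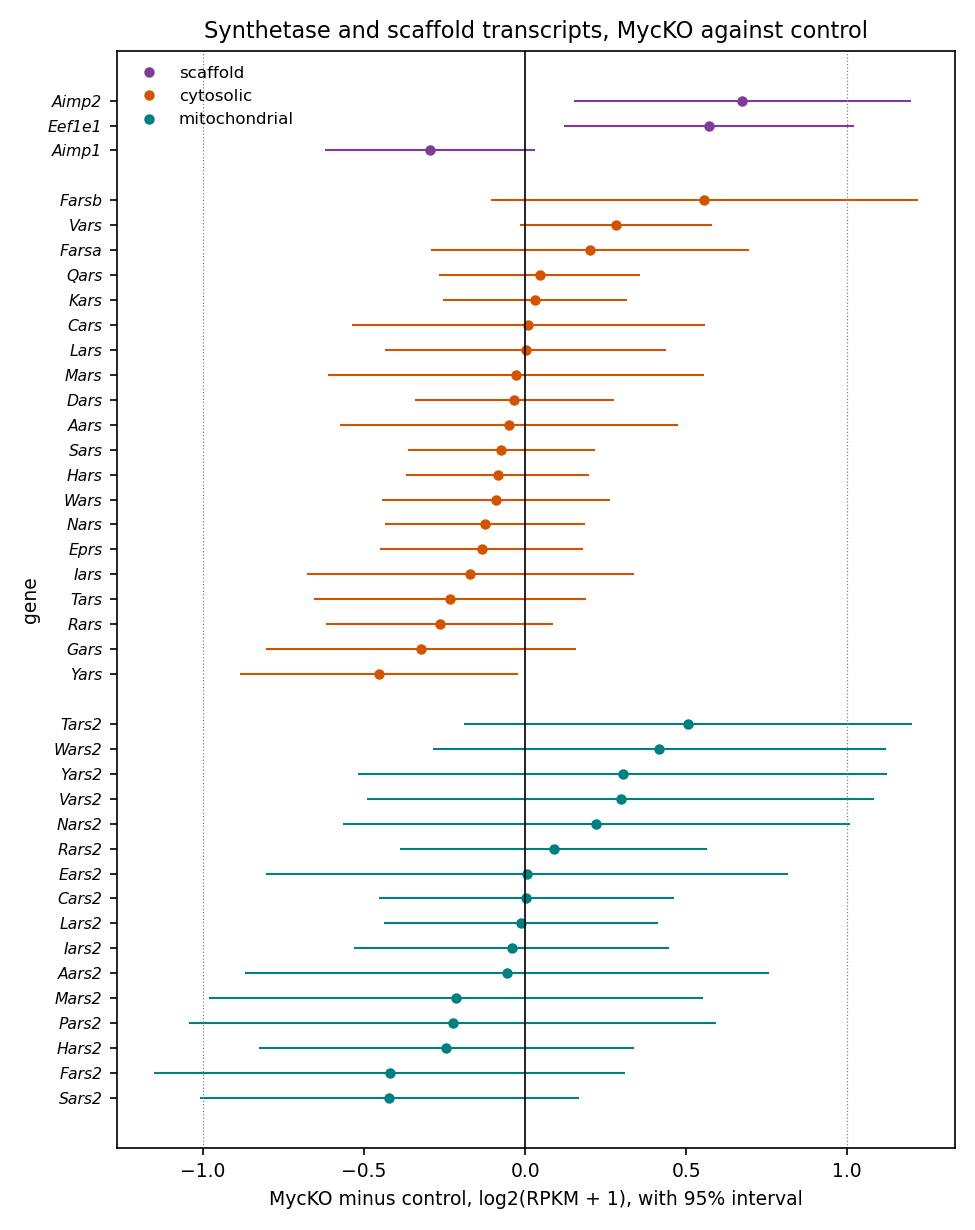
The difference between MycKO and control of each of the 39 genes on the log2(RPKM + 1) scale (x axis; points are limma estimates, lines 95% intervals, n = 2 MycKO and 3 control libraries), ordered within scaffolds, cytosolic and mitochondrial enzymes. The intervals of Aimp2, Eef1e1 and Yars leave out 0 before adjustment, and those of the mitochondrial enzymes are the widest on the whole.

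The largest differences of all members were those of the scaffolds Aimp2 and Eef1e1, both higher in MycKO, while Aimp1 was lower. Aimp2, which binds Kars and Dars in the complex, was at 16.2 and 17.8 RPKM in MycKO 5 and 6 and at 12.2, 11.1 and 7.98 RPKM in controls 1, 2 and 3. Eef1e1, the scaffold that docks Mars, was at 20.6 and 22.9 RPKM in MycKO and at 12.8, 17.5 and 13.1 RPKM in controls. For both genes each MycKO library lay above every control. The differences were 0.67 (SE 0.22, limma adjusted p = 0.241) for Aimp2 and 0.57 (SE 0.19, limma adjusted p = 0.254) for Eef1e1. Aimp1, which binds Rars and is also known in a secreted form, lay the other way, at 33.3 and 39.9 RPKM in MycKO and 45.4, 41.6 and 48.1 RPKM in controls (-0.30, SE 0.14, limma adjusted p = 0.425). Both MycKO libraries were below all controls. The sum of the 3 scaffolds was 70.2 and 80.6 RPKM in MycKO 5 and 6 and 69.2 to 70.4 RPKM in controls. By this sum MycKO 5 lay within the controls and MycKO 6 above all of them. Aimp2 (chr5:143902704-143909847, minus strand, mm10) shares 487 exon bases, 29.4% of its own, with Eif2ak1 on the other strand, and the use of strand in counting is not given. Eif2ak1, the gene of the heme-regulated kinase of the stress response, was at 38.3 and 30.8 RPKM in MycKO and 31.5, 31.5 and 33.6 RPKM in controls, which overlap. Eef1e1 (chr13:38644207-38659058, minus strand) shares no exon base with another annotated gene. Of all 39 genes, 15 share exon bases with another gene, 8 of them at least 5% of their own, among them Farsb, Iars2, Fars2 and, on the same strand, Aars.

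**Figure D2:**
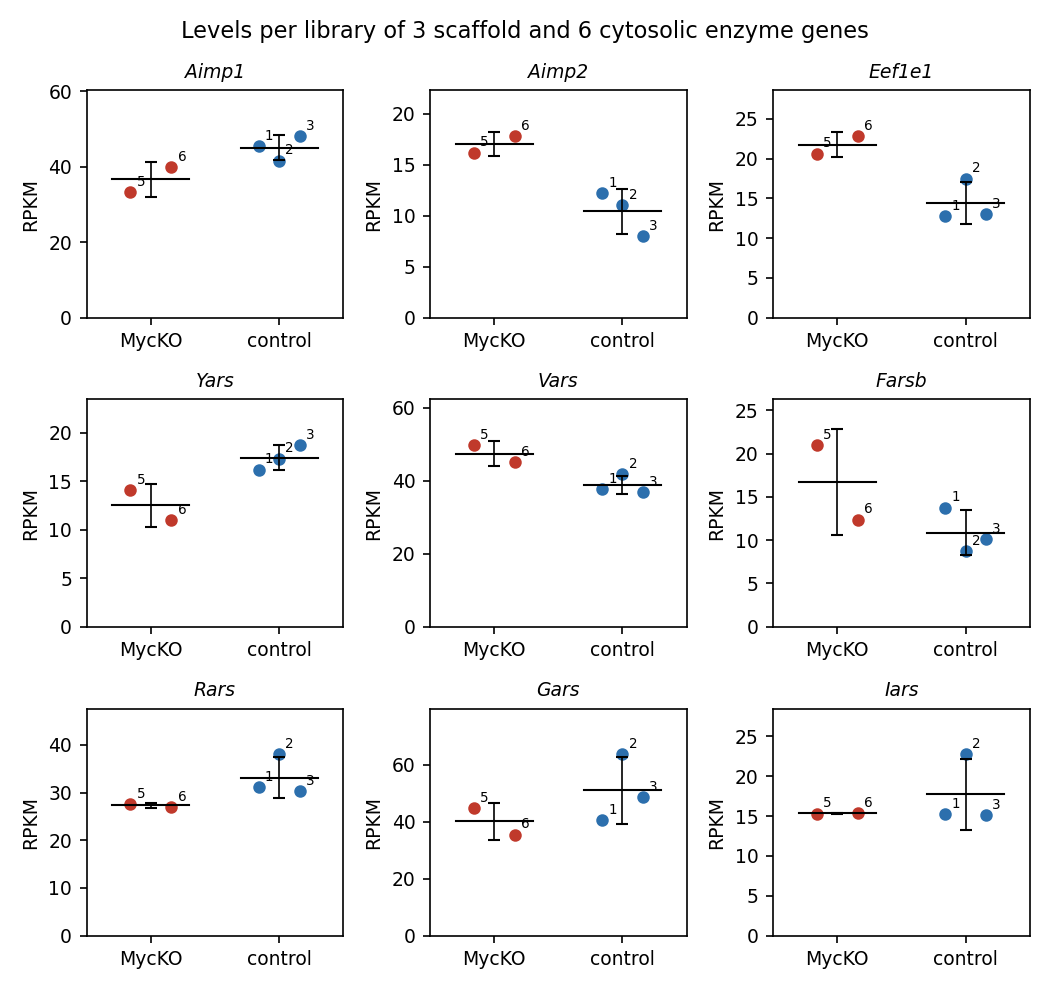
RPKM per library (y axis, from 0) of the scaffold genes Aimp1, Aimp2 and Eef1e1 and of the cytosolic enzyme genes Yars, Vars, Farsb, Rars, Gars and Iars, MycKO left and control right; numbers are replicates, bars the mean and SD (n = 2 and 3). The groups of the scaffolds, Yars, Vars and Rars do not overlap, and control 2 is the highest library for Rars, Gars and Iars.

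The 8 enzymes of the complex had a median difference of -0.03 and a range of -0.26 to 0.05, and none passed the test. Rars, the arginyl enzyme, had the smallest p of them, at 27.6 and 27.0 RPKM in MycKO 5 and 6 and 31.1, 38.1 and 30.3 RPKM in controls 1, 2 and 3. Both MycKO libraries lay below all controls, but the difference of -0.26 (SE 0.15) did not pass (limma adjusted p = 0.546) and was -0.16 without control 2. Eprs, which also binds mRNA in a translation-silencing complex in human cells, was at 23.9 and 23.6 RPKM in MycKO and 25.2 to 26.7 RPKM in controls, again with no overlap and a small difference (-0.13, limma adjusted p = 0.783). Qars, the glutaminyl enzyme and the most abundant of the complex, was at 55.7 and 48.7 RPKM in MycKO and 48.1, 47.7 and 56.0 RPKM in controls, with full overlap. Its 95% interval ran from -0.26 to 0.35. The intervals of Kars (-0.25 to 0.31) and Dars (-0.34 to 0.27) were as narrow, and their differences were 0.03 and -0.03. Those of Iars (-0.68 to 0.34) and Mars (-0.61 to 0.55) were wider and held the lowest and highest limits of the 8.

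The 12 cytosolic enzymes outside the complex had a median difference of -0.08 and a range of -0.45 to 0.56. Their median SE was 0.18, against 0.14 for the 8 of the complex, and the contrast in range was not tested. Yars, the tyrosyl enzyme, was at 14.1 and 11.0 RPKM in MycKO 5 and 6 and 16.2, 17.4 and 18.8 RPKM in controls 1, 2 and 3. It was the only enzyme with an unadjusted p under 0.05, with both MycKO libraries below all controls. The difference was -0.45 (SE 0.18, limma adjusted p = 0.348), and -0.29 without MycKO 6. Vars, the valyl enzyme, lay the other way, at 49.8 and 45.0 RPKM in MycKO and 37.7, 41.8 and 37.0 RPKM in controls, with no overlap (0.28, SE 0.13, limma adjusted p = 0.404). It was the only cytosolic enzyme with both MycKO libraries above all controls.

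Farsb and Farsa encode the 2 kinds of subunit of the cytosolic phenylalanyl enzyme. Farsb was at 21.0 and 12.4 RPKM in MycKO and 13.7, 8.69 and 10.1 RPKM in controls. Its high mean in MycKO (16.7 ± 6.10 RPKM, SD, n = 2, against 10.8 ± 2.61 RPKM, SD, n = 3, in controls) rested on MycKO 5, without which the difference of 0.56 (limma adjusted p = 0.481) was 0.20. Farsa was at 28.6 and 23.5 RPKM in MycKO and 21.6, 18.2 and 28.5 RPKM in controls (0.20, limma adjusted p = 0.801), so groups overlapped for both subunits. Gars, the glycyl enzyme of both compartments, was at 44.8 and 35.5 RPKM in MycKO and 40.5, 63.8 and 48.7 RPKM in controls (-0.32, SE 0.21, limma adjusted p = 0.611). The groups overlapped, and without control 2 the difference was -0.15. Nars, the asparaginyl enzyme and with Qars the highest of the cytosolic ones, was at 53.9 and 44.4 RPKM in MycKO and 56.3, 50.5 and 53.7 RPKM in controls (-0.13). Cars, the cysteinyl enzyme and the lowest, was at 6.26 and 7.02 RPKM in MycKO and 7.24, 5.74 and 6.84 RPKM in controls, with a difference of 0.01 that overlapping groups and an SE of 0.23 leave without a direction. Wars, the tryptophanyl enzyme, which interferon-gamma is known to induce, was at 20.5 and 20.8 RPKM in MycKO and 20.8, 24.3 and 21.1 RPKM in controls. Wars and Sars, the seryl enzyme, had both MycKO libraries just below all controls, with differences of -0.09 and -0.07 that lay within their SE of 0.15 and 0.12. The other cytosolic enzymes, Aars, Hars and Tars outside the complex and Iars, Lars and Mars within it, had overlapping groups and differences of -0.23 to 0.0014.

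Promoter sequences were read to see which members hold the letters bound by MYC with its partner MAX, and those bound by ATF4. RefSeq windows on GRCm38.p6, from 250 bases before to 50 after an annotated start, matched 30 of the 39 genes by Entrez number (13 cytosolic, 14 mitochondrial and 3 scaffold genes), in 32 windows. Cars, Hars, Hars2, Lars, Nars, Pars2, Rars, Vars and Wars were not scanned. Both strands were searched for CACGTG, the canonical E-box, and for TGATGNAA, the core of the CEBP-ATF response element, and matches of the 2 motifs did not overlap each other. CACGTG was found in 4 of 13 cytosolic genes (Aars, Farsb, Iars and Tars), 1 of 14 mitochondrial genes (Ears2) and 0 of 3 scaffolds, beside 11.5% of the 10384 genes of the table that have a window. TGATGNAA was found in 5 of 13 cytosolic genes (Aars, Gars, Iars, Tars and Yars), in 0 of 14 mitochondrial genes and in 0 of 3 scaffolds, beside 2.93% of the same genes. These are matches of letters, not measured sites. The windows of these genes are shown because they carry the only matches among cytosolic enzymes; they run 5′ to 3′ on the strand of the gene, with both motifs in capitals on whichever strand they lie.
Aars, chr8:111033592-111033891, plus strand: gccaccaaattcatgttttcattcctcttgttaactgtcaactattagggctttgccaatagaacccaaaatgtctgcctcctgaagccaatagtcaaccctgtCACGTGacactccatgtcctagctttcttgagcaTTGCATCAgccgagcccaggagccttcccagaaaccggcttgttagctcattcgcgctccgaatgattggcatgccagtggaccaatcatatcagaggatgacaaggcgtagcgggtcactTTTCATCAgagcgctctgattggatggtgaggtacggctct
Gars, chr6:55037751-55038050, plus strand: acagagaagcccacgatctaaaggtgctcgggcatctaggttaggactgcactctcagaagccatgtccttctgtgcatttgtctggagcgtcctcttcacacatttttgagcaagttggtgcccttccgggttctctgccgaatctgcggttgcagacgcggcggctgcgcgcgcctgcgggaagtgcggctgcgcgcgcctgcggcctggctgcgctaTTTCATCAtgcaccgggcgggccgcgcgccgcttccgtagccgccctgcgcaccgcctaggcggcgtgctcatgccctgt
Iars, chr13:49681880-49682179, plus strand: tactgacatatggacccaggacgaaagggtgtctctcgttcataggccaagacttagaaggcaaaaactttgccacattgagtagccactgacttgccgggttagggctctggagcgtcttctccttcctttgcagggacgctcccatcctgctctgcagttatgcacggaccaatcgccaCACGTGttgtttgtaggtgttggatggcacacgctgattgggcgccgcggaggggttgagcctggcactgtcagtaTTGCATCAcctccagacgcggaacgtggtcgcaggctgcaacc
Tars, chr15:11399609-11399908, minus strand: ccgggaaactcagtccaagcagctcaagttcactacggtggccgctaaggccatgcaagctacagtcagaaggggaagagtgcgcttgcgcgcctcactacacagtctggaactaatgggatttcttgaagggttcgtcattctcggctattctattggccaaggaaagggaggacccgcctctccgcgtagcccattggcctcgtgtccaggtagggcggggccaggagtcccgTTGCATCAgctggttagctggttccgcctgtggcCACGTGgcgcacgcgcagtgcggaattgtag
Yars, chr4:129189653-129189952, plus strand: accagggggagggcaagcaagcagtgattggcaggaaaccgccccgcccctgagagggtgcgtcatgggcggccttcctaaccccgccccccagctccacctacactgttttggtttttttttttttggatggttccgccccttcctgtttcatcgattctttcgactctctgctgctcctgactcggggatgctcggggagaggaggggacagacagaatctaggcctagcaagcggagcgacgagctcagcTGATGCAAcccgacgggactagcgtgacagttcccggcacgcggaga
Farsb, chr1:78488848-78489147, minus strand: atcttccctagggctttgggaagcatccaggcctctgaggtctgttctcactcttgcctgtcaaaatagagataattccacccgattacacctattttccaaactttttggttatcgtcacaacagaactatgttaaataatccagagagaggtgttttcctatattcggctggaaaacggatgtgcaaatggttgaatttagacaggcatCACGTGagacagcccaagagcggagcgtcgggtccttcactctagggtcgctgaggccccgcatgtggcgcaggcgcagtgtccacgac

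Beside these letters the RNA levels can be set. The 5 genes with TGATGNAA had differences of -0.05 (Aars), -0.32 (Gars), -0.17 (Iars), -0.23 (Tars) and -0.45 (Yars), all below 0 and none past the test. Of all 20 cytosolic enzymes, 13 were below 0, and the direction of the genes with this motif was not tested. Counted from the start to the first base of the match, the response element stood 30 bases before the start in Gars, 15 before it in Tars, and 4 and 8 bases into the transcript in Yars and Iars, while Aars had 2 matches, 112 bases before and 10 bases after its start. Of the 4 cytosolic genes with CACGTG, Aars, Iars and Tars were lower and Farsb was higher (0.56) in MycKO without passing the test, so the genes holding this motif shared no direction. The E-box stood 39 bases before the start in Farsb, 69 in Iars and 146 in Aars, and 20 bases after it in Tars. Iars was at 15.3 and 15.4 RPKM in MycKO and 15.2, 22.8 and 15.1 RPKM in controls, with control 2 alone standing apart. Tars was at 26.6 and 32.5 RPKM in MycKO and 32.8, 42.0 and 30.3 RPKM in controls, and Aars at 23.1 and 19.1 RPKM in MycKO and 22.2, 27.6 and 16.8 RPKM in controls. Aars, Gars, Iars and Tars were all highest in control 2, and their groups overlapped. For Aars and Iars the mean of controls 1 and 3 lay below that of MycKO, so the lower direction of these genes rested on control 2, and that of Aars on MycKO 6 as well.

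Among mitochondrial enzymes, which charge the tRNAs encoded by mitochondrial DNA, 0 of 16 had an unadjusted p under 0.05. Over all genes tested that share was 13.2%. Tars2, the threonyl enzyme, had the smallest p, at 8.15 and 6.32 RPKM in MycKO 5 and 6 and 3.72, 4.37 and 6.58 RPKM in controls 1, 2 and 3 (0.50, SE 0.30, limma adjusted p = 0.566). MycKO 6 lay below control 3, so the groups overlapped. Sars2, the seryl enzyme, was at 3.93 and 4.08 RPKM in MycKO and 5.56, 5.20 and 6.41 RPKM in controls (-0.42, SE 0.25, limma adjusted p = 0.573), with both MycKO libraries below all controls. Wars2, the tryptophanyl enzyme, lay above all controls, at 3.97 and 3.91 RPKM in MycKO and 2.68, 3.39 and 2.14 RPKM in controls (0.42, SE 0.30, limma adjusted p = 0.67). Fars2, the phenylalanyl enzyme, which unlike its cytosolic counterpart is a single chain, was at 7.25 and 7.07 RPKM in MycKO and 8.09, 15.4 and 7.75 RPKM in controls. Both MycKO libraries were lowest, but the difference of -0.42 (SE 0.31, limma adjusted p = 0.682) was -0.13 without control 2, in which Fars2 was 1.94 times the mean of controls 1 and 3. Hars2, the histidyl enzyme, was at 12.6 and 13.2 RPKM in MycKO and 11.1, 16.9 and 19.5 RPKM in controls (-0.24, limma adjusted p = 0.791). These groups overlapped. Hars2 shares 195 exon bases with Hars on the other strand.

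Lars2, the leucyl enzyme, stood far above the other mitochondrial enzymes, at 430 and 293 RPKM in MycKO and 365, 314 and 400 RPKM in controls. Its MycKO libraries were the highest and the lowest of the 5, so no difference between groups was visible (-0.01, SE 0.18, limma adjusted p = 0.991). Rn45s, the ribosomal RNA precursor, held 1.90% and 1.43% of reads in MycKO 5 and 6 and 2.11%, 1.42% and 2.28% in controls 1, 2 and 3. MycKO 6 and control 2 were thus the lowest libraries for both Rn45s and Lars2. The highest libraries differed, MycKO 5 for Lars2 and control 3 for Rn45s, and MycKO 5 lay below controls 1 and 3 for Rn45s. The part of ribosomal RNA reads in the Lars2 level, and in sums and ratios that include it, was not tested. Iars2, the isoleucyl enzyme and next in level, was at 22.2 and 16.9 RPKM in MycKO and 16.5, 19.96 and 24.0 RPKM in controls (-0.04). It shares 2034 exon bases, 22.9% of its own, with Rab3gap2 on the other strand. Pars2, the prolyl enzyme, was at 1.31 and 1.24 RPKM in MycKO and 1.55, 2.24 and 1.27 RPKM in controls. Ears2, the glutamyl enzyme, was the lowest of all, at 1.40 and 1.18 RPKM in MycKO and 1.09, 1.58 and 1.20 RPKM in controls. For both the groups overlapped. With as few as 38 reads of Pars2 and 50 of Ears2 in a library, no difference was detectable at this depth within 95% intervals of -1.04 to 0.59 for Pars2 and -0.80 to 0.81 for Ears2. These intervals are on the log2(RPKM + 1) scale, which understates changes of genes this low. With a pseudocount of 0.1 the difference went from -0.23 to -0.34 for Pars2 and from 0.0059 to 0.014 for Ears2. The other 7, Aars2, Cars2, Mars2, Nars2, Rars2, Vars2 and Yars2, had overlapping groups and differences of -0.22 to 0.30.

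Set against each other, cytosolic enzymes were the more abundant class, and the summed level of neither class separated MycKO from control. The median level over the 5 libraries was 28.03 RPKM for cytosolic and 5.67 RPKM for mitochondrial enzymes. Library by library, the cytosolic median was 27.1 and 25.3 RPKM in MycKO 5 and 6. In controls 1, 2 and 3 it was 28.2, 33.1 and 29.4 RPKM, so by the median, unlike the sum, MycKO lay below all controls. The mitochondrial median was 6.52 and 6.45 RPKM in MycKO and 6.76, 5.42 and 6.38 RPKM in controls, with overlap. These medians were not tested. Of 17 pairs of a cytosolic and a mitochondrial enzyme for the same amino acid (Eprs and Fars2 each enter 2 pairs), the cytosolic one was higher in 14, with a median ratio of 4.46. In the exceptions the ratio was 0.0555 for Lars and Lars2, 0.496 for Cars and Cars2 and 0.841 for Iars and Iars2. The difference between MycKO and control had the same sign in both partners in 8 of the 17 pairs. Yars and Yars2 lay apart (-0.45 and 0.30), as did Tars and Tars2 (-0.23 and 0.50), Wars and Wars2 (-0.09 and 0.42) and Farsb and Fars2 (0.56 and -0.42), while Vars and Vars2 were close (0.28 and 0.30). The difference within a pair was not tested, and its parts have SEs of 0.12 to 0.35.

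**Figure D3:**
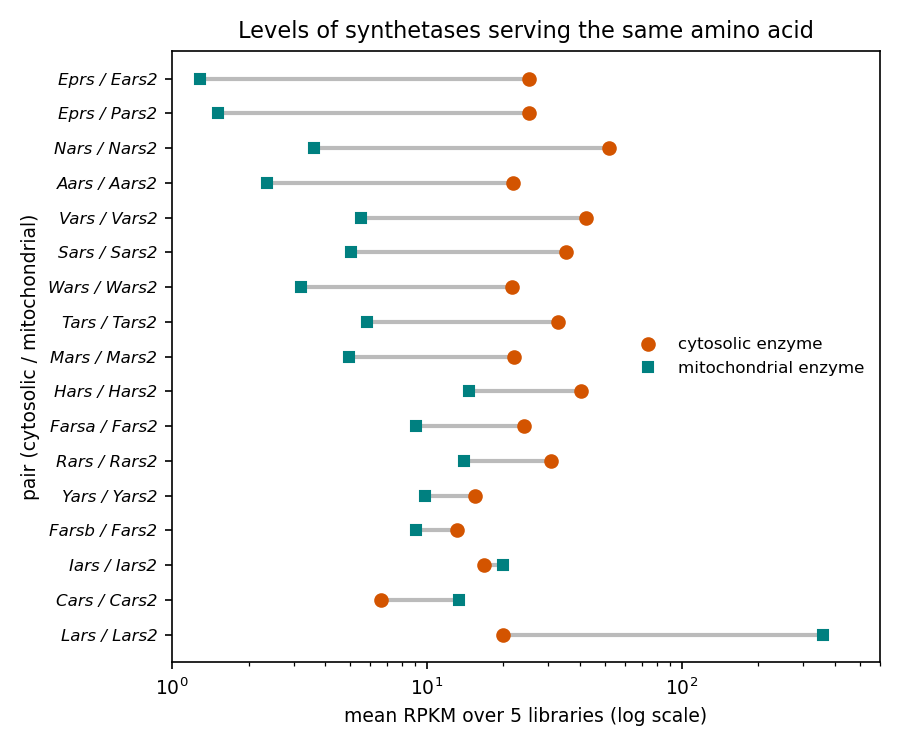
Mean RPKM over the 5 libraries (x axis, log scale) of each cytosolic enzyme (circle) and the mitochondrial enzyme for the same amino acid (square), 17 pairs ordered by their ratio. The circle lies right of the square in 14 pairs, and the square of Lars2 stands apart at 360 RPKM.

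Summed over the class, the 20 cytosolic enzymes came to 616 and 559 RPKM in MycKO 5 and 6 and to 584, 649 and 601 RPKM in controls 1, 2 and 3. The means were 587 ± 40.1 RPKM (SD, n = 2) in MycKO and 611 ± 33.9 RPKM (SD, n = 3) in controls, closer than the spread between libraries. The mitochondrial enzymes without Lars2 came to 116.9 and 109 RPKM in MycKO and 108, 122 and 116 RPKM in controls. With Lars2 they came to 547 and 401 RPKM in MycKO and 473, 436 and 515 RPKM in controls, and most of that spread was Lars2. The ratio of the cytosolic sum to the mitochondrial sum without Lars2 was 5.27 and 5.13 in MycKO and 5.42, 5.32 and 5.19 in controls. The MycKO ratios thus lay one inside and one just under the range of controls. With Lars2 the ratios were 1.13 and 1.39 in MycKO and 1.24, 1.49 and 1.17 in controls. The median difference of cytosolic enzymes minus that of mitochondrial enzymes was -0.06, near the spread of 0.05 between libraries.

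**Figure D4:**
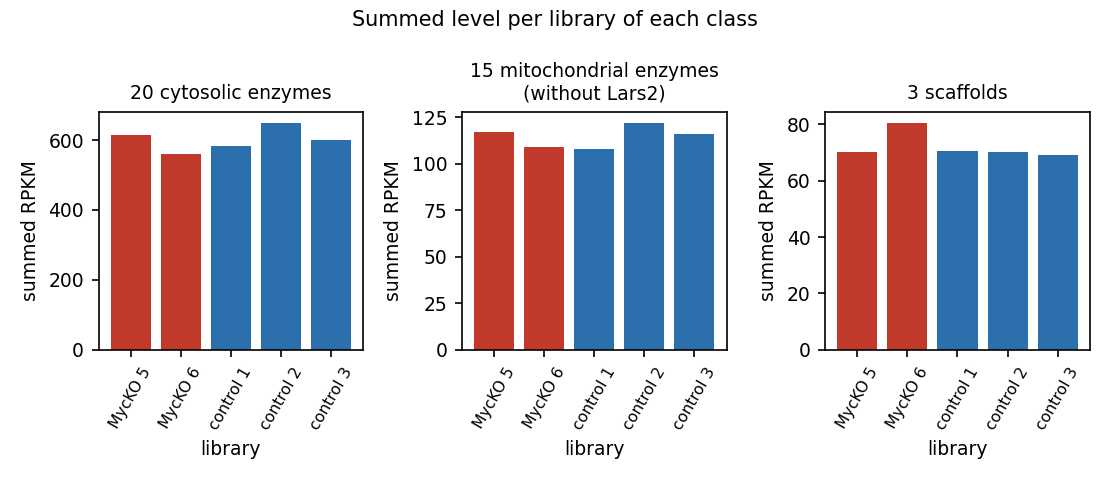
Summed RPKM per library (y axes, from 0) of the 20 cytosolic enzymes, the 15 mitochondrial enzymes other than Lars2 and the 3 scaffolds, MycKO libraries left of controls. For cytosolic enzymes MycKO lies at 616 and 559 RPKM, inside and below the controls at 584 to 649 RPKM, and control 2 is the highest of all libraries for both enzyme classes.

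Several enzymes were highest or lowest of the controls in control 2, as were many other genes. Of the 20 cytosolic enzymes 11 were higher in control 2 than in both other controls and 6 were lower than in both, and of the 16 mitochondrial enzymes 6 were higher and 4 lower. Over the 39 genes 18 were higher and 11 lower, and over the 11190 genes tested 4137 were higher and 4083 lower. Iars (1.503 times the mean of controls 1 and 3), Mars (1.49), Gars (1.43) and Aars (1.42) had the highest ratios among cytosolic enzymes, chosen after their values were seen. Mars, the methionyl enzyme, was at 26.4 and 17.2 RPKM in MycKO and 18.7, 28.4 and 19.4 RPKM in controls, so MycKO 5 and control 2 were the high libraries. The same 2 libraries held the most mitosis transcripts: 12 of 12 listed genes summed to 158 and 77.3 RPKM in MycKO 5 and 6 and to 39.8, 222 and 41.5 RPKM in controls 1, 2 and 3, with 0 called (limma). The part of dividing cells in synthetase levels was not tested. Without control 2 the number of members called stayed 0, with 4 at an unadjusted p under 0.05 (Aimp1, Aimp2, Eef1e1 and Vars), and the median of the cytosolic enzymes was -0.01.

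Of 18 other listed genes of tRNA charging and handling, 17 were in the table and 0 passed the test, with a median of 0.03. At an unadjusted p under 0.05 there were 2. The shares over all genes tested were 1.34% called and 13.2% at that unadjusted p. Aarsd1, an editing protein that clears wrongly charged alanyl tRNA, was at 18.01 and 15.01 RPKM in MycKO and 9.82, 10.3 and 12.5 RPKM in controls (0.56, limma adjusted p = 0.275). Tufm, the elongation factor that brings charged tRNA to the mitochondrial ribosome, was at 28.9 and 26.2 RPKM in MycKO and 24.2, 19.6 and 18.5 RPKM in controls (0.40, limma adjusted p = 0.374). For both, the MycKO libraries lay above all controls, as they did for 18.8% of all genes tested. Ptrhd1, a peptidyl-tRNA hydrolase domain gene near the limit of the filter, was at 1.60 and 2.09 RPKM in MycKO and 0.430, 0.7497 and 1.03 RPKM in controls (0.72, limma adjusted p = 0.487). Eef1a1, which brings charged tRNA to the cytosolic ribosome, was at 3774 and 3549 RPKM in MycKO and 4122 to 4741 RPKM in controls (-0.25, limma adjusted p = 0.505), and has many processed copies that could share its reads.

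Of 13 listed genes of the amino acid response, which reads uncharged tRNA through the kinase GCN2 (Eif2ak4), 11 were in the table and 10 were tested. Among these 1 passed, as higher, beside 1.24% of all genes tested, and the median was 0.09. Asns, the asparagine synthetase, was at 8.37 and 7.08 RPKM in MycKO and at 0.241, 0 and 0 RPKM in controls 1, 2 and 3 (3.02, SE 0.34, limma adjusted p = 0.0131). The call was lost with a pseudocount of 0.1 (5.69, adjusted p = 0.0637), a filter of 5 RPKM (3.02, adjusted p = 0.111), limma-voom (7.499, adjusted p = 0.132) and without control 3 (2.96, adjusted p = 0.0559). It was kept without control 1 or 2, with the other scalings, with no filter and with no variance trend, and in the authors' deposited table (6.45, adjusted p = 6.18e-05). Asns reached the filter only through the MycKO libraries, the group in which it was high. Without either MycKO library it failed the filter, and the part of other cells was not tested. The difference was -0.13 for Nars, which uses the asparagine that Asns makes. The RNA of Atf4 was at 117.2 and 97.1 RPKM in MycKO and 116.5 to 120.2 RPKM in controls (-0.14, limma adjusted p = 0.704), with overlap. The ATF4 protein and its activity were not measured. For Sesn2 the groups lay apart without passing the test. Sesn2, a stress-induced brake on mTORC1, was at 6.56 and 5.33 RPKM in MycKO and 3.83, 2.69 and 3.37 RPKM in controls (0.70, limma adjusted p = 0.344). Psat1, an enzyme of serine synthesis, was at 19.9 and 13.1 RPKM in MycKO and 10.6, 15.5 and 13.0 RPKM in controls (0.31, limma adjusted p = 0.704), with overlap.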

How the data were processed

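The libraries were stranded (dUTP) and read as single reads of 51 bases, per the labels' protocols. TopHat, edgeR and the build mm10 are listed in the submitters' processing notes, with no role or version. Annotation and counting tool are not stated there, and the use of strand was not given in the sources used here. The deposited table gives, per the file headers, RPKM per sample, the authors' mean normalized signal per group, the authors' fold ratio and log2 value, and their p-value and adjusted p-value, whose program is not named. The lowest mean signal is 2.1, so lower genes were left out before deposit. Reads were recovered from deposited RPKM and group means; 100% of values were whole reads, with a tolerance of 0.001.

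The test, on log2(RPKM + 1) of genes reaching 1 RPKM in 2 or more libraries, was limma 3.58.1 in R 4.3.3. It was two-sided, with a variance trend (residual degrees of freedom 3, prior 4.41). It was also run on simulated counts, but the share of changes recovered there is not given here. Fold changes on the log2(RPKM + 1) scale understate changes of low genes. Values in every library are given for the scaffolds and, per enzyme class, for the 5 genes of smallest p and the 2 highest and 2 lowest by level; of each other list, the 3 of smallest p. Aars, Atf4, Eef1a1, Eif2ak1, Eprs, Farsa, Iars, Mars, Tars and Wars were chosen after their values were seen. Members and lists were chosen with earlier results of these data known. Marker lists hold the genes named for each cell type in textbooks and were not tested as sets. Coordinates are from GENCODE vM21 (GRCm38, mm10). Other steps used Python 3.11.15 and matplotlib 3.10.9.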

Additional observations from a re-analysis of the deposited data

How the results depend on the processing

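No paired analysis was possible because the groups share no replicate number. The count of synthetase and scaffold genes called stayed 0 under each of the 13 alternatives run: a pseudocount of 0.1, limma-voom, no variance trend, a filter of 5 RPKM (34 members left) or none, scaling by median of ratios or upper quartile, leaving out each library, and the authors' deposited test, which was chosen after seeing the data. At an unadjusted p under 0.05 the number ranged from 1 to 4. Over all genes 150 were called, but 80 with a pseudocount of 0.1, 232 with limma-voom, 442 in the authors' deposited table and 34 (without MycKO 5) to 217 (without control 2) when a library was left out (150 with all 5); the cause was not tested. The median of cytosolic enzymes was -0.14 in the authors' deposited table. Leaving out each library, that median ran from -0.10 to -0.01, that of mitochondrial enzymes from -0.049 to 0.11, that of scaffolds from 0.50 to 0.71, and the cytosolic minus the mitochondrial median from -0.16 to -0.037.

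Signs turned for Qars, Cars, Ears2, Nars, Iars2 and Lars2 among the genes recomputed under each alternative, none of them called, and the cause was not tested. Aars and Iars were not among these genes, and their dependence on control 2 is given with their levels. With median-of-ratios scaling Qars was at -0.0075, Cars at -0.037 and Ears2 at -0.024. With upper-quartile scaling Qars was at -2.36e-05, Cars at -0.030 and Ears2 at -0.020. In the authors' deposited table Qars was at -0.017, Cars at -0.051 and Ears2 at -0.060, and by limma-voom Ears2 was at -0.062. Leaving out each library, Qars ran from -0.049 to 0.14, Nars from -0.26 to 0.012, Cars from -0.075 to 0.082, Iars2 from -0.23 to 0.15, Lars2 from -0.29 to 0.26 and Ears2 from -0.064 to 0.095. Aimp2 kept its sign at 0.51 to 0.79 (adjusted p 0.232 to 0.713 by limma or the authors' test), Eef1e1 at 0.50 to 0.71 (0.122 to 0.818) and Yars at -0.62 to -0.29 (0.288 to 0.775). In the library where each gene had fewest reads, the median was 430 reads for cytosolic enzymes, 107.5 for mitochondrial enzymes and 117 for scaffolds.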
